A study of Arabidopsis thaliana with 12 samples.

Results

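Calli of the *DEMETER* mutant *dme-2* were compared with WT calli in RNA-seq data of *Arabidopsis thaliana* ecotype L*er*. The comparison rests on 6 of the 12 libraries of the series, 3 from *dme-2* callus and 3 from WT callus, chosen by their labels, and on all 27147 L*er* loci in the table of TPM values. TPM is a relative transcript abundance adjusted for transcript length, which sums to the same total in each library. The genotypes are labelled Ler dme-2/- and Ler WT, and nothing else in the labels distinguishes them. True leaves of 2-week-old seedlings served as explants and were kept for 7 days in the dark on callus-inducing medium (CIM), which holds the auxin 2,4-D and the cytokinin kinetin, so both genotypes had the same treatment. The other 6 libraries are de novo shoots of *dme-2* and WT, formed when calli were moved to shoot-inducing medium (SIM) for 14 days, and are used here only beside callus results. *dme-2* is 1 mutant allele in 1 ecotype, and no second allele or rescued line was sequenced for the comparison.

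*DME* encodes a DNA glycosylase that excises 5-methylcytosine and so removes DNA methylation. It is best known for its action in the central cell of the female gametophyte, and its relatives *ROS1*, *DML2* and *DML3* act in vegetative tissue. Callus on CIM grows from pericycle-like cells through a programme that resembles the start of a lateral root, in which LBD and PLETHORA transcription factors have a part. DOF transcription factors, which bind DNA through a single zinc finger, act in vascular tissue and in wound repair.

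The labelled tissue was checked against marker genes. *LBD16*, a lateral root regulator, averaged 49.4 TPM in *dme-2* calli and 54.1 TPM in WT calli, while the shoot meristem genes *WUS*, *STM*, *CUC1* and *CUC2* all averaged under 1 TPM in both. Across the 15 pairs of callus libraries, Pearson correlations of log2(TPM + 1) over loci were 0.935 to 0.973. The highest was between *dme-2* replicate 2 and WT replicate 3, above the highest within a genotype (0.969), so replicates were not always the most alike. The lowest was between *dme-2* replicate 3 and WT replicate 3, which lay at opposite ends of the first principal component (41.9% of the variance), and the genotypes separated only on the second (22.8%). The median SD of a locus between replicates was 0.241 in *dme-2* calli and 0.212 in WT calli on the log2 scale, against 0.10 in *dme-2* shoots and 0.0866 in WT shoots. Total counts of the WT callus libraries were 12981250 to 20128757, and the depth of the *dme-2* callus libraries is not known from TPM.

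Of the 17029 loci that averaged 1 TPM or more over the callus libraries, 24 (0.141%) had an adjusted p under 0.05 by limma on log2(TPM + 1) with Benjamini-Hochberg adjustment. These loci are called changed below. In *dme-2* calli, 9 of them rose (0.0529% of the loci tested) and 15 fell (0.0881%), and in all 24 the 3 *dme-2* libraries did not overlap the 3 WT libraries. At the cut-off of the study, a log2 fold change beyond 1 in either direction with an unadjusted p under 0.05, 300 loci passed (1.76%), 193 of them higher (1.13%) and 107 lower (0.628%), and an unadjusted p under 0.05 alone was reached by 1373 loci (8.06%). The study applied this cut-off to fold changes from DESeq2, so a locus can pass in 1 method and not in the other. Non-overlap alone was common, since 7.53% of the loci tested were higher in every *dme-2* library than in every WT library and 5.75% lower. The median log2 fold change over all loci was 0.04. The number of adjusted calls depended on every library. It was 4, 7 and 9 without *dme-2* replicate 1, 2 or 3, and 4, 1 and 1 without WT replicate 1, 2 or 3. All 24 loci passed the fold and unadjusted p cut-off under each of the 14 alternatives in which they were tested, and none changed sign. They were picked by low p-values in these same libraries and this cut-off is weaker. Passing it was therefore likely from the start and is a description. In bulk tissue, a change in the share of cells of a type and a change in RNA per cell cannot be told apart.

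**Figure D1:**
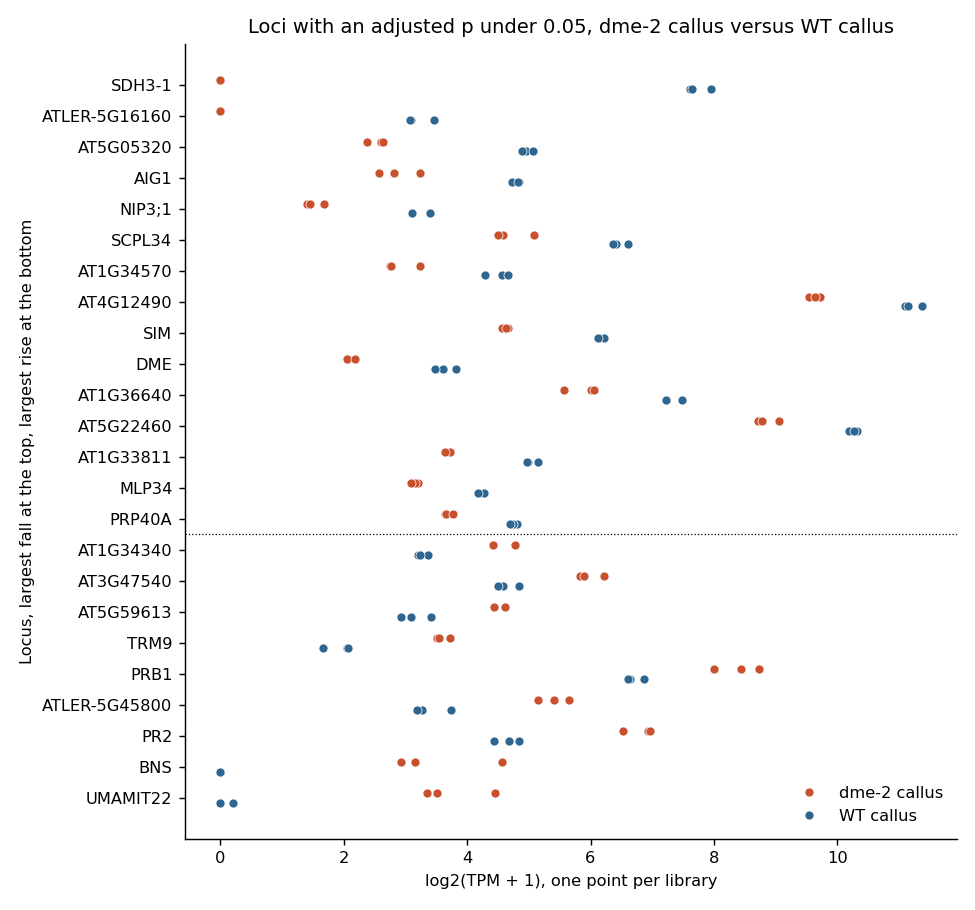
TPM of the 24 called loci in each callus library, on a log2(TPM + 1) axis. Red points are the 3 *dme-2* libraries and blue points the 3 WT libraries, the 15 loci above the dotted line fell and the 9 below it rose, and no locus has overlapping groups.

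The mutated gene was examined first. *DME* (ATLER-5G14070) had 3.21, 3.14 and 3.54 TPM in *dme-2* calli, against 13.2, 11.2 and 10.1 TPM in WT calli. All 3 libraries labelled *dme-2* thus held less *DME* transcript than all 3 labelled WT, though the transcript was still detected in each. The log2 fold change was −1.53 (SE 0.17, adjusted p = 0.0411 by limma). This call was lost when any 1 library was left out, with a log2 fold change between −1.62 and −1.44. Of the other demethylase genes, *ROS1* had 3.43, 3.13 and 2.58 TPM in *dme-2* calli, against 1.99, 4.36 and 1.26 TPM in WT calli. Its log2 fold change of 0.28 (SE 0.34) was smaller than its error. *DML2* had a log2 fold change of 0.03 (SE 0.30), and *DML3*, listed at 0 in 5 of the 6 callus libraries, was not tested. None of the 8 genes of methylation maintenance and none of the 15 tested of 22 genes of RNA-directed DNA methylation (RdDM) reached an unadjusted p under 0.05, and their medians were 0.10 and 0.18 on the log2 scale. *CMT2*, which methylates cytosines in the CHH context, had 5.54, 4.61 and 7.70 TPM in *dme-2* calli and 5.64, 4.29 and 2.87 TPM in WT calli (log2 fold change 0.41, SE 0.27), and *SHH1*, which recruits RNA polymerase IV, had a log2 fold change of 0.58 (SE 0.29). The groups overlapped for both.

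The strongest difference was at a gene of mitochondrial respiration. *SDH3-1* (ATLER-5G19310) encodes a membrane anchor subunit of succinate dehydrogenase, the enzyme shared by the citric acid cycle and the respiratory chain. No transcript was listed for it in any *dme-2* callus (0 TPM in each), whereas WT calli had 194, 199 and 246 TPM, and the adjusted p by limma was 3.42e-06. It was also at 0 in all 3 *dme-2* shoots, against 118, 112 and 130 TPM in WT shoots. The locus was thus listed as off in every *dme-2* library and high in every WT library, and it was the only locus called under all 14 alternatives. Its log2 fold change depends on the pseudocount and was −7.73 with 1 TPM and −11.05 with 0.1 TPM. The second copy, *SDH3-2* (ATLER-4G60690), had 369, 450 and 321 TPM in *dme-2* calli, against 193, 185 and 179 TPM in WT calli. It lay 2.05-fold above WT by the ratio of means, and its adjusted p of 0.089 by limma missed the threshold. A further locus with the same 2 Col homologs, ATLER-4G60720, had 88.2, 135 and 34.8 TPM in *dme-2* calli and 168, 130 and 110 TPM in WT calli. Because these copies are alike, reads could have been split between them, so their sum was also formed. Summed over the 3 loci, *SDH3* transcripts had 457, 585 and 356 TPM in *dme-2* calli, against 555, 515 and 534 TPM in WT calli, which is 466 ± 115 and 535 ± 20.2 TPM (SD, n = 3 each). The sums overlapped between the genotypes, as did the values of ATLER-4G60720, whereas those of *SDH3-1* and *SDH3-2* did not.

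Several of the other falls were at genes of known or inferred function. *SIM* (ATLER-5G13970), an inhibitor of cyclin-dependent kinases that promotes endoreduplication in trichomes, had 24.4, 22.75 and 23.64 TPM in *dme-2* calli and 70.0, 73.1 and 68.5 TPM in WT calli. This is a log2 fold change of −1.54 (SE 0.11, adjusted p = 0.00816 by limma), in libraries that differed little within each genotype. AT5G05320, annotated as an FAD/NAD(P)-binding oxidoreductase, had 5.08, 5.25 and 4.21 TPM in *dme-2* calli, against 30.2, 32.5 and 28.5 TPM in WT calli. It was 6.27-fold lower in *dme-2* by the ratio of means (adjusted p = 0.00497). ATLER-5G16160, a locus without a Col homolog, was listed at 0 in each *dme-2* callus, whereas WT calli had 7.48, 10.01 and 7.43 TPM of it, with an adjusted p of 0.00769.

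*AIG1*, first described as a gene induced by a bacterial avirulence gene, had 4.98, 6.08 and 8.47 TPM in *dme-2* calli and 25.6, 27.7 and 27.3 TPM in WT calli (log2 fold change −1.92, SE 0.19). *SCPL34*, a serine carboxypeptidase-like protein, had 22.8, 21.6 and 32.7 TPM in *dme-2* calli and 96.0, 84.4 and 81.1 TPM in WT calli (log2 fold change −1.74, SE 0.18). *NIP3;1*, a channel protein of the aquaporin family, had 1.66, 2.21 and 1.74 TPM in *dme-2* calli and 9.53, 7.59 and 9.56 TPM in WT calli (log2 fold change −1.78, SE 0.19). In each the 2 genotypes were separated by more than 2-fold.

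AT4G12490, a lipid-transfer-like protein, was the most abundant of the called transcripts. It had 844, 745 and 795 TPM in *dme-2* calli, against 2176, 2268 and 2658 TPM in WT calli (log2 fold change −1.57, SE 0.14, adjusted p = 0.0246 by limma). It lies in a tandem cluster of related genes, which was looked at after these values were seen. Its neighbour *EARLI1* had 1887, 1827 and 1845 TPM in *dme-2* calli and 3381, 3100 and 3887 TPM in WT calli (log2 fold change −0.89, adjusted p = 0.115), and the adjacent AT4G12495 had a log2 fold change of −1.73 (adjusted p = 0.0989). *AZI1*, on the other side of *EARLI1*, had 820, 738 and 788 TPM in *dme-2* calli and 752, 888 and 830 TPM in WT calli, a log2 fold change of −0.07. The cluster was thus not uniformly lower.

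There were 6 more falls, with log2 fold changes from −1.59 to −1.05. AT1G34570, annotated with a Yae1 domain and with 2 Col homologs, had 5.75, 8.41 and 5.84 TPM in *dme-2* calli, against 18.6, 22.8 and 24.5 TPM in WT calli. The alpha/beta-hydrolase gene AT5G22460 was far more abundant, with 419, 529 and 439 TPM in *dme-2* calli, against 1281, 1168 and 1229 TPM in WT calli. *PRP40A*, whose product takes part in pre-mRNA splicing, had 11.5, 11.7 and 12.7 TPM in *dme-2* calli, against 27.0, 25.8 and 24.8 TPM in WT calli, the smallest of the called falls. The others were AT1G36640, the GDSL lipase gene AT1G33811 and *MLP34*, of the major latex protein family, which has 2 Col homologs.

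Rises in *dme-2* calli included 3 genes of proteins with a role in defence. *PR2*, a beta-1,3-glucanase that serves as a marker of salicylic acid responses, had 91.2, 121 and 123 TPM in *dme-2* calli, against 24.75, 20.53 and 27.76 TPM in WT calli. It was 4.6-fold higher by the ratio of means (log2 fold change 2.15, SE 0.17, adjusted p = 0.0165 by limma). *PRB1*, a basic relative of *PR1*, had 254, 345 and 425 TPM in *dme-2* calli and 98.6, 97.0 and 115 TPM in WT calli (log2 fold change 1.68, SE 0.20, adjusted p = 0.0493). It has 2 Col homologs, so its reads may be shared with a copy. The chitinase family gene AT3G47540 had 55.9, 58.2 and 73.4 TPM in *dme-2* calli and 27.56, 22.99 and 21.6 TPM in WT calli (log2 fold change 1.34, SE 0.16, adjusted p = 0.0493). The lowest *dme-2* library exceeded the highest WT library for each of them.

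In WT calli 2 of the rising genes were at or near 0. *BNS* (*BONSAI*), which encodes a subunit of the anaphase-promoting complex and is known for gaining DNA methylation in *ddm1* mutants, had 22.7, 6.61 and 7.93 TPM in *dme-2* calli and was listed at 0 in all 3 WT calli (adjusted p = 0.0493 by limma). *UMAMIT22*, of a family of amino acid transporters, had 10.4, 9.16 and 20.8 TPM in *dme-2* calli, against 0, 0 and 0.16 TPM in WT calli (adjusted p = 0.0217). In shoots neither was off in WT. *BNS* had 42.1, 6.19 and 4.22 TPM in *dme-2* shoots and 12.9, 19.7 and 31.4 TPM in WT shoots, and *UMAMIT22* 4.06, 3.68 and 4.40 TPM in *dme-2* shoots and 5.67, 3.38 and 5.97 TPM in WT shoots. The remaining rises were ATLER-5G45800, which has no Col homolog (41.6, 49.4 and 34.6 TPM in *dme-2* calli, against 8.61, 12.3 and 8.13 TPM in WT calli), *TRM9*, of a family of microtubule-associated proteins (12.2, 10.4 and 10.7 TPM in *dme-2* calli, against 3.16, 3.18 and 2.18 TPM in WT calli), AT5G59613, annotated as an ATP synthase subunit (23.42, 20.69 and 23.58 TPM in *dme-2* calli, against 6.60, 7.49 and 9.65 TPM in WT calli), and AT1G34340, an alpha/beta-hydrolase (20.5, 26.3 and 20.5 TPM in *dme-2* calli, against 9.28, 8.23 and 8.45 TPM in WT calli). AT5G59613 has 2 Col homologs, so its reads may be shared with a copy.

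DOF factors that the study names, and their relatives, were then examined. These genes were chosen with results of these samples known, so their direction is a description. Of 9 DOF genes, 8 were tested, all 8 had a positive log2 fold change, 4 passed the fold and unadjusted p cut-off (beside 1.13% of all loci tested that rose past it) and none was called at the adjusted p. Their median was 0.97, against 0.04 over all loci. *TMO6* had 96.8, 90.5 and 78.8 TPM in *dme-2* calli and 50.6, 31.0 and 33.8 TPM in WT calli (log2 fold change 1.21, SE 0.20, adjusted p = 0.113 by limma). *DOF2.1* had 39.5, 40.9 and 48.2 TPM in *dme-2* calli and 25.5, 17.41 and 12.95 TPM in WT calli (log2 fold change 1.21, SE 0.24, adjusted p = 0.171). Both were above 2-fold by the ratio of means, with no overlap between the groups.

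*PEAR2* had 9.33, 6.97 and 6.53 TPM in *dme-2* calli and 3.59, 2.40 and 2.35 TPM in WT calli (log2 fold change 1.19, SE 0.22, adjusted p = 0.146), and *PEAR1* 3.12, 2.12 and 1.03 TPM in *dme-2* calli and 0.24, 0.52 and 0.44 TPM in WT calli (log2 fold change 1.09, adjusted p = 0.405). *HCA2* (*DOF5.6*) had 4.22, 3.63 and 1.2 TPM in *dme-2* calli and 1.52, 1.06 and 0.74 TPM in WT calli, with overlapping groups. Its ratio of means was 2.73, and its log2 fold change of 0.85 (SE 0.37) is on the log2(TPM + 1) scale, which understates changes of low loci. Without WT replicate 3 the log2 fold change of *DOF2.1* was 0.98, just under the cut-off. Since DOF factors act in vascular tissue, vascular markers are given beside them. All 3 phloem markers tested of 4 and all 4 xylem markers had positive log2 fold changes, with medians of 0.69 and 0.33. The phloem markers summed to 9.12 to 15.6 TPM in *dme-2* calli and 5.34 to 10.7 TPM in WT calli, with *APL*, a phloem identity gene, averaging 1.2 TPM in *dme-2* calli and 1.16 TPM in WT calli. The xylem markers summed to 9.48, 40.7 and 9.59 TPM in *dme-2* calli and 19.2, 7.43 and 10.1 TPM in WT calli, so the high end came from *dme-2* replicate 2 alone. Both ranges overlapped, none of these markers was called, and their part in the DOF values was not tested.

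**Figure D2:**
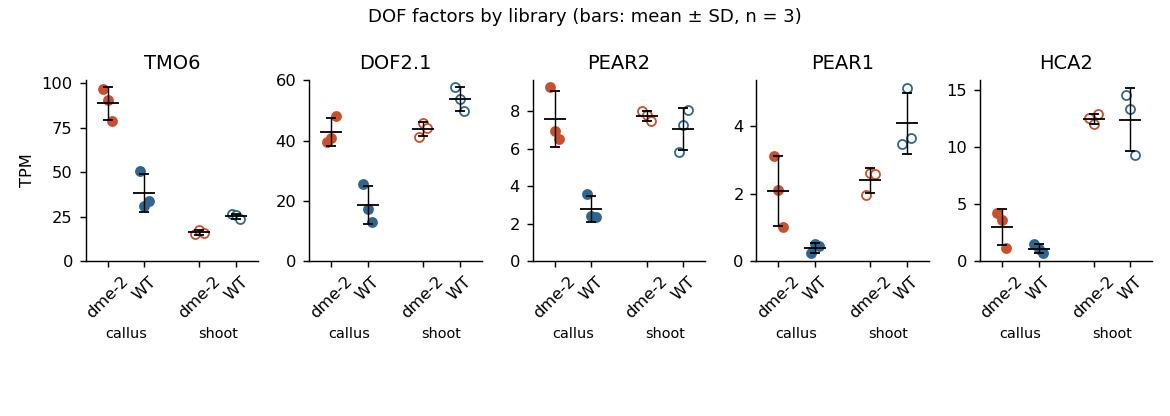
TPM of 5 DOF factors by library in *dme-2* and WT, callus with filled points and shoot with open points (mean ± SD, n = 3). In callus the *dme-2* points of *TMO6*, *DOF2.1*, *PEAR2* and *PEAR1* lie above all WT points, and in shoots *TMO6* lies below WT.

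The DOF values differed between the stages. In shoots *TMO6* had 15.08, 17.55 and 16.13 TPM in *dme-2* and 26.6, 25.7 and 23.9 TPM in WT, a log2 fold change of −0.61 (adjusted p = 0.000699 by limma). The interaction of genotype and stage, fitted over all 12 libraries and reached by 10.9% of loci at an adjusted p under 0.05, was −1.83 for *TMO6*, −1.50 for *DOF2.1*, −1.66 for *PEAR1* and −1.06 for *PEAR2* on the log2 scale, each past that threshold. These genes were picked with callus results known, and the same callus libraries enter this fit, so these interactions are descriptions.

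Among 24 tested regulators of callus formation and pluripotency, the median log2 fold change was 0.02, 3 had an unadjusted p under 0.05 (beside 8.06% of all loci tested) and none was called by limma. *PLT5*, a PLETHORA factor, had 12.1, 6.33 and 11.7 TPM in *dme-2* calli and 4.45, 6.41 and 2.66 TPM in WT calli. Its log2 fold change of 1.01 (SE 0.33, adjusted p = 0.48 by limma) passed the cut-off only barely, the groups overlapped, and it was under the cut-off without WT replicate 3 (0.75), *dme-2* replicate 1 (0.87) or *dme-2* replicate 3 (0.89). *TAR3*, a relative of auxin synthesis enzymes, was under the minimum of 1 TPM for a test, with 0.48, 0.90 and 1.05 TPM in *dme-2* calli and 0.08, 0 and 0.11 TPM in WT calli. Among 13 tested cytokinin genes, *ARR16*, a type-A response regulator, was the only one past the cut-off, with 5.94, 4.94 and 4.70 TPM in *dme-2* calli and 0.76, 2.40 and 2.25 TPM in WT calli (log2 fold change 1.2, adjusted p = 0.281). *GH3.3*, an auxin-conjugating enzyme with 3 Col homologs, had 156, 179 and 172 TPM in *dme-2* calli and 277, 241 and 304 TPM in WT calli (log2 fold change −0.69, adjusted p = 0.157). None of the 19 tested auxin genes (3 with an unadjusted p under 0.05) and none of the 17 tested cell cycle genes (0 with an unadjusted p under 0.05) passed the cut-off. *RSL2*, a root hair regulator, had 3.18, 3.05 and 0.93 TPM in *dme-2* calli and 7.30, 7.59 and 7.39 TPM in WT calli (log2 fold change −1.40, adjusted p = 0.228).

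**Figure D3:**
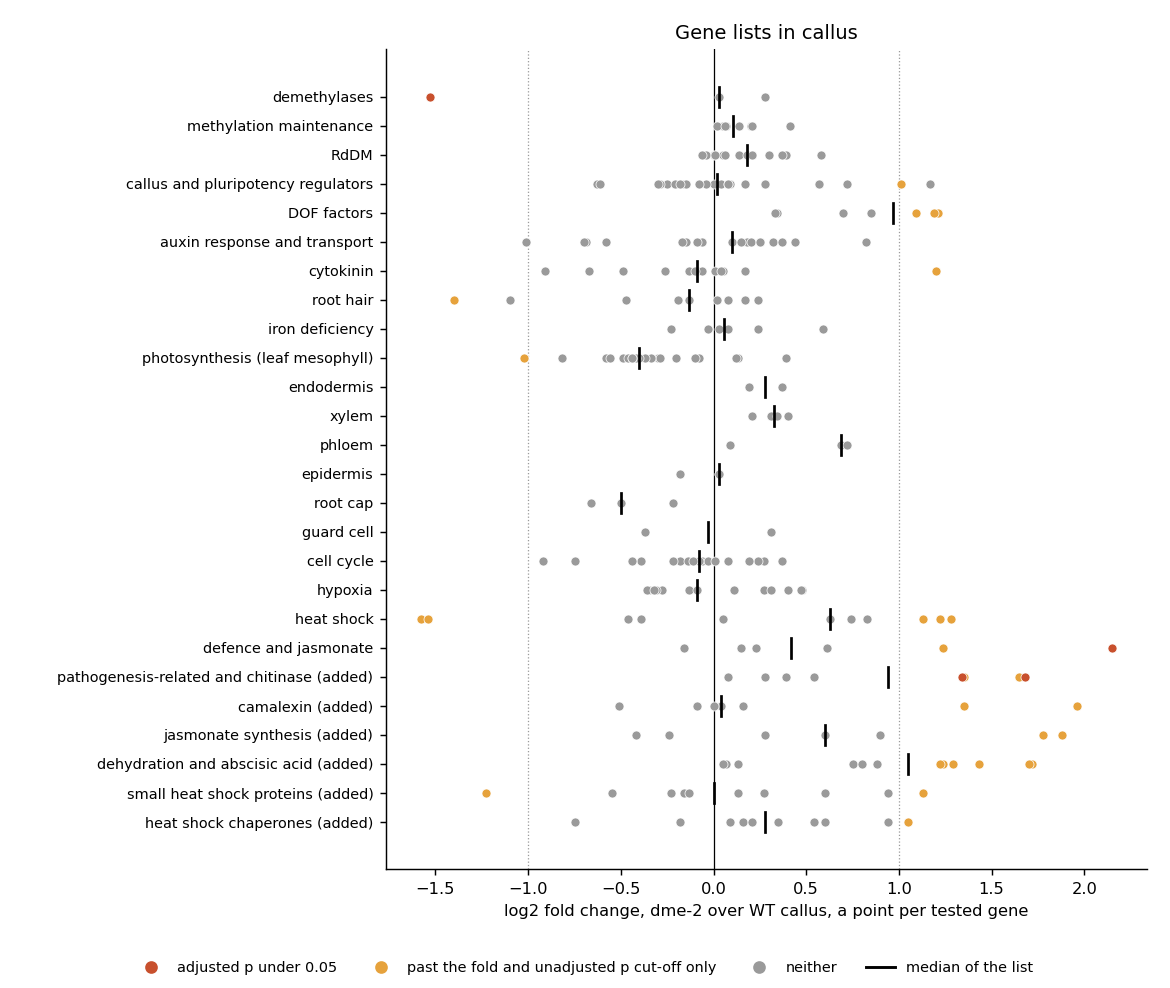
Log2 fold change of each tested list member, *dme-2* over WT callus, with the list median as a bar and dotted lines at −1 and 1. Orange genes passed only the fold and unadjusted p cut-off. Called genes (red) are *DME* at −1.53, *PR2* at 2.15, *PRB1* at 1.68 and AT3G47540 at 1.34, and the DOF and dehydration lists have medians of 0.97 and 1.05. Lists marked as added were drawn up after values were seen.

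Defence and stress genes other than the called ones were grouped in lists of which several were drawn up after the values were seen, and their counts are descriptive. Of 8 pathogenesis-related and chitinase genes, all 8 had positive log2 fold changes, 4 passed the cut-off (beside 1.13% of all loci tested that rose past it) and 2, *PRB1* and AT3G47540, were called. They summed to 11343 to 14410 TPM in *dme-2* calli and 11277 to 12513 TPM in WT calli, with overlap. The 10 genes of the defence and jasmonate list also overlapped, at 1076 to 1399 TPM in *dme-2* calli and 963 to 1491 TPM in WT calli. The chitinase family gene AT2G43580 had 59.6, 70.9 and 51.6 TPM in *dme-2* calli, against 17.43, 23.74 and 29.34 TPM in WT calli (log2 fold change 1.35, adjusted p = 0.0989 by limma), while *PR4* had a log2 fold change of 0.08. *PR5*, a thaumatin-like protein, had 13.15, 16.16 and 17.43 TPM in *dme-2* calli and 7.65, 3.80 and 7.15 TPM in WT calli (log2 fold change 1.24, adjusted p = 0.185). For *PAD3*, the last enzyme of camalexin synthesis, values were 7.87, 15.9 and 20.4 TPM in *dme-2* calli and 1.14, 3.78 and 4.26 TPM in WT calli (log2 fold change 1.96, adjusted p = 0.227), but the median of the 7 camalexin genes was 0.04. *AOC1* and *AOC2*, neighbouring genes of allene oxide cyclases in jasmonate synthesis, had log2 fold changes of 1.88 and 1.78, with *dme-2* replicate 3 highest in both. Each has 2 Col homologs, so reads may be shared between them.

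Genes known to respond to dehydration and abscisic acid were also listed after values were seen, so their counts are descriptions. Their median log2 fold change was 1.05 over 12 tested members. All 12 were positive, 6 passed the cut-off (beside 1.13% of all loci tested that rose past it) and none was called. *LEA4-5*, a late embryogenesis abundant protein, had 184, 114 and 220 TPM in *dme-2* calli and 51.2, 49.1 and 51.8 TPM in WT calli (log2 fold change 1.70, SE 0.23, adjusted p = 0.076 by limma). *COR15A*, a cold-regulated chloroplast protein, had 33.9, 25.4 and 24.3 TPM in *dme-2* calli and 8.89, 10.5 and 13.2 TPM in WT calli (log2 fold change 1.29, adjusted p = 0.089). *KIN1*, a cold- and abscisic acid-responsive gene, had 261, 281 and 173 TPM in *dme-2* calli and 83.5, 136 and 30.1 TPM in WT calli (log2 fold change 1.72, adjusted p = 0.407), so that a larger difference came with a larger spread. The groups did not overlap for 9 of the 12, beside 7.53% of all loci tested that were higher without overlap. Summed over all 14 genes of the list, TPM was 3750 to 5476 in *dme-2* calli and 3126 to 3753 in WT calli, with overlap.

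Heat shock genes did not all share a direction, though more rose than fell. Of 11 tested, 7 had positive and 4 negative log2 fold changes, with a median of 0.63. Past the cut-off 3 lay above and 2 below, beside 1.13% and 0.628% over all loci, and none was called. The list summed to 3567 to 4693 TPM in *dme-2* calli and 2029 to 3031 TPM in WT calli, without overlap. *HSP70* had 734, 784 and 923 TPM in *dme-2* calli and 267, 342 and 548 TPM in WT calli, a log2 fold change of 1.13. *HSP101*, which dissolves protein aggregates, had 131, 114 and 247 TPM in *dme-2* calli and 43.8, 81.9 and 78.9 TPM in WT calli, with a log2 fold change of 1.22. Among small heat shock proteins, *HSP18.2* and *HSP22* had log2 fold changes of −1.58 and −1.54. *HSP18.2* had 6.37, 3.9 and 7.2 TPM in *dme-2* calli and 14.7, 26.0 and 17.9 TPM in WT calli, but *HSP70* and *HSP18.2* each have more than 1 Col homolog, so their reads may be shared with copies. The more abundant *HSP17.8*, which has 2 Col homologs, had 447, 305 and 616 TPM in *dme-2* calli and 117, 244 and 276 TPM in WT calli (log2 fold change 1.13, adjusted p = 0.487 by limma). In a list of small heat shock proteins drawn up after values were seen, 5 of the 10 tested had positive and 5 negative log2 fold changes, with a median of 0.00. A list of cytosolic chaperones and regulators, also drawn up after values were seen, had 8 positive and 2 negative of 10 tested, with a median of 0.28. It summed to 1147 to 1589 TPM in *dme-2* calli and 816 to 974 TPM in WT calli.

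Few markers of other cell types differed. The 21 photosynthesis genes of leaf mesophyll had a median log2 fold change of −0.40, with 18 negative and 1, *PSAD2*, past the cut-off at −1.02, and they summed to 290 to 532 TPM in *dme-2* calli and 439 to 613 TPM in WT calli. The 3 root cap genes had a median of −0.50, and *BRN2* among them an unadjusted p of 0.029. No member of the endodermis, xylem, phloem, epidermis, guard cell, hypoxia or iron deficiency lists passed the cut-off.

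The position of the loci along the chromosomes was then examined. The L*er* loci were divided, in their order along each chromosome, into 93 windows of 300 loci or fewer. In 88 windows fewer than 5% of the tested loci passed the fold and unadjusted p cut-off (median 1.46%, highest 4.63%). The other 5 windows held 5.17% of the tested loci, 18.7% of those past the cut-off and 14 of the 24 called loci. They lie on chromosomes 5 and 1 and were picked by these values, so the shares are descriptions.

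**Figure D4:**
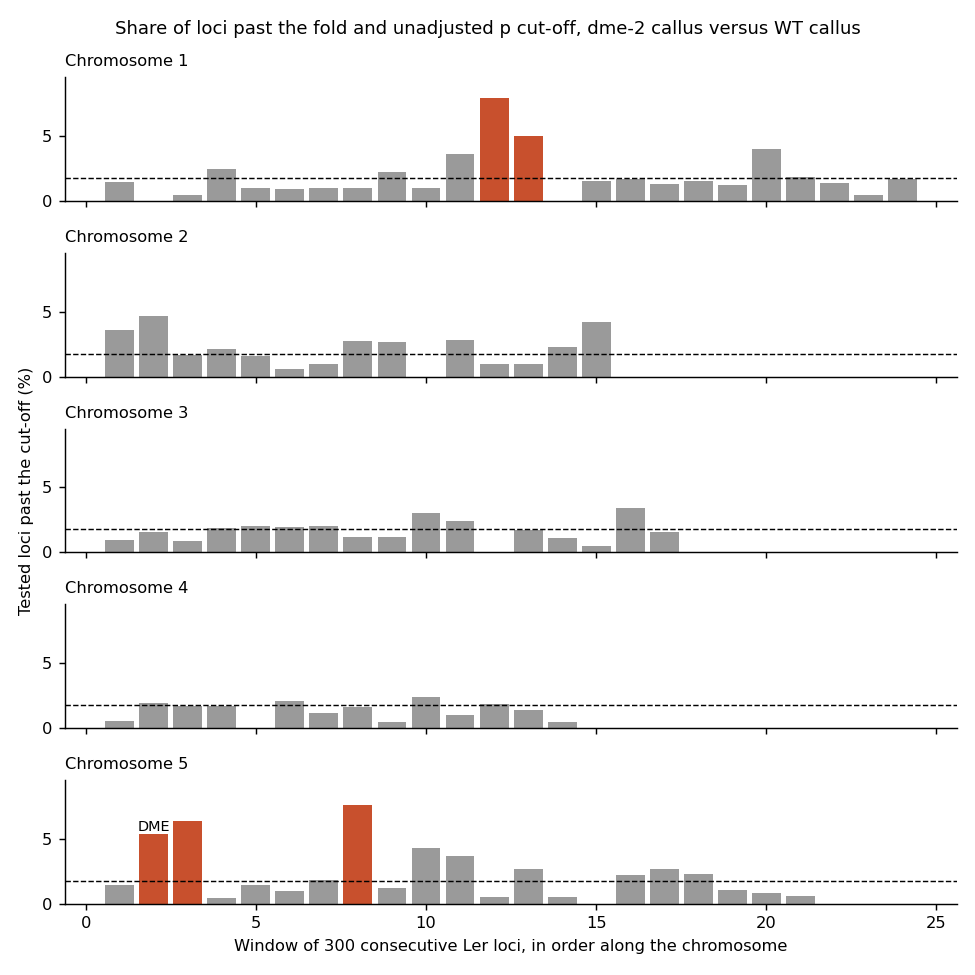
Percentage of tested loci past the fold and unadjusted p cut-off in windows of 300 consecutive L*er* loci along the 5 chromosomes, *dme-2* versus WT callus. The dashed line is the share over all loci (1.76%), and the 5 red windows, at 5.0% to 7.89%, are on chromosomes 1 and 5, where 1 of them holds *DME*.

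On chromosome 5, the window that holds *DME* had 11 of 206 tested loci past the cut-off (5.34%) and the next one 13 of 204 (6.37%). Called loci in them were *SIM*, *DME*, AT5G05320, ATLER-5G16160 and *SDH3-1*, at distances of 10, 0, 81, 200 and 492 loci from *DME*, and all of them fell. Of all loci past the cut-off, however, only 7 of the 11 and 5 of the 13 were lower, so these windows were not uniformly lower. A separate window of chromosome 5 had 15 of 197 loci past the cut-off (7.61%), of which 8 were lower. *SCPL34* and AT5G22460, with called falls, were among them. In the same window *SGS3*, a cofactor of RNA silencing named after its values were seen, had 5.62, 4.56 and 5.86 TPM in *dme-2* calli and 17.77, 16.06 and 12.95 TPM in WT calli (log2 fold change −1.38, SE 0.18, adjusted p = 0.0594 by limma), and in shoots 12.95, 12.77 and 12.4 TPM in *dme-2* against 36.3, 32.4 and 33.0 TPM in WT.

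On chromosome 1, adjacent windows had 9 of 114 (7.89%) and 8 of 160 (5.0%) loci past the cut-off. They held 7 called loci, namely *AIG1*, AT1G34570, AT1G36640, AT1G33811, *PRP40A*, AT1G34340 and *UMAMIT22*, of which 5 fell. Across the 5 windows, 43 loci past the cut-off were also tested in shoots, and 32 of them (74.4%) had the same sign there, against 89 of 189 (47.1%) in all other windows. Over all loci tested in both tissues the share with the same sign was 43.9%.

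The called loci were finally compared with de novo shoots, whose libraries are separate from those of callus. Of the 24 loci, 23 were tested in shoots, 16 had the same sign and 14 of these also had an adjusted p under 0.05 there, a threshold that 41.9% of all loci passed in shoots (20.4% higher and 21.5% lower). *TRM9* had 16.04, 16.4 and 14.24 TPM in *dme-2* shoots, against 3.80, 5.09 and 4.50 TPM in WT shoots, a log2 fold change of 1.6 beside 1.67 in callus. *AIG1* had 5.53, 5.57 and 4.92 TPM in *dme-2* shoots, against 17.9, 17.9 and 17.9 TPM in WT shoots. Both thus had differences close to those in callus, with interaction estimates of −0.06 and 0.34.

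The opposite sign with an adjusted p under 0.05 was found at 3 loci, *PRB1*, *SCPL34* and *MLP34*. *PRB1* had 37.2, 42.3 and 40.7 TPM in *dme-2* shoots, against 452, 429 and 433 TPM in WT shoots, a log2 fold change of −3.42 (adjusted p = 4.36e-07 by limma) beside 1.68 in callus. *SCPL34* had 67.3, 61.6 and 62.0 TPM in *dme-2* shoots and 46.3, 46.0 and 48.5 TPM in WT shoots (log2 fold change 0.43). For AT4G12490 the sign was kept and the difference was larger, with 10, 9.98 and 9.41 TPM in *dme-2* shoots and 132, 161 and 139 TPM in WT shoots (log2 fold change −3.74).

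**Figure D5:**
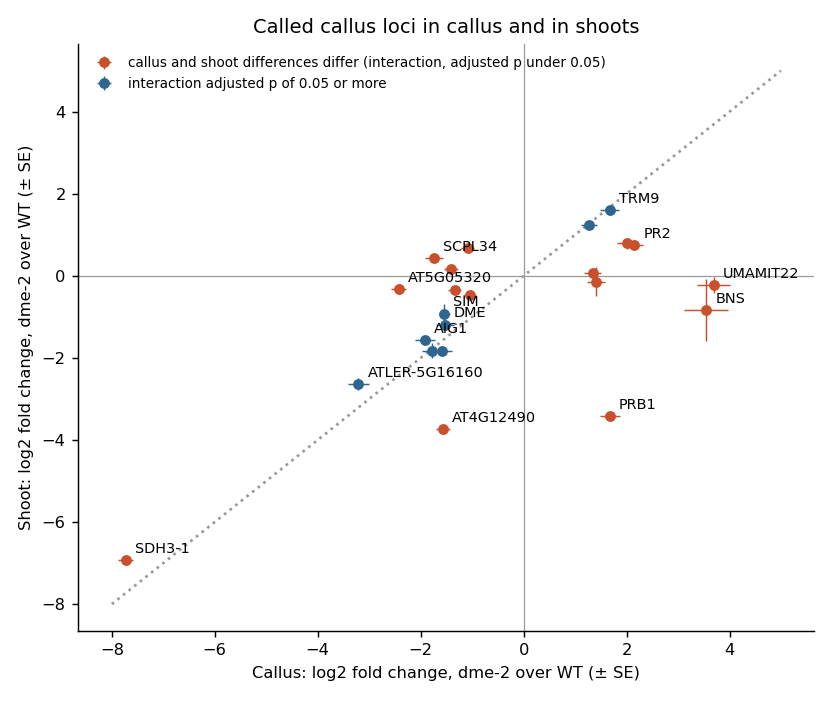
Log2 fold change of *dme-2* over WT (± SE) in callus on the x axis and in shoots on the y axis, for the 23 called callus loci tested in both. Points on the dotted line have equal differences, and red points have an interaction of genotype and stage with an adjusted p under 0.05. *SDH3-1* lies at −7.73 and −6.92, *TRM9* at 1.67 and 1.6, and *PRB1* at 1.68 and −3.42.

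Presence and absence were counted without a test. A value of 0 in each *dme-2* callus with 1 TPM or more in each WT callus was found at 7 of the 27147 loci. Of these, 5 are on chromosome 5, which holds 4027 of the 17029 loci tested in callus. Of the 7, 4 were also at 0 in all *dme-2* shoots and above 0 in all WT shoots, namely *SDH3-1*, ATLER-5G16160, ATLER-1G59020 and ATLER-5G32390, of which the last 3 have no Col homolog. The reverse pattern was found at 3 loci, *BNS*, AT1G55675 and AT2G04795, all of them above 0 in every WT shoot. AT2G04795, of unknown function, had 2.36, 2.94 and 2.19 TPM in *dme-2* calli and was at 0 in WT calli. TPM values do not tell how many reads stand behind a 0.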

How the data were processed

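Per the labels, total RNA was made into stranded mRNA libraries. Per the submitters' processing notes and the methods of the study, the authors used STAR 2.7.10a for mapping to the L*er* assembly and RSEM 1.3.1 for abundance. The deposited TPM values are adjusted for length and have the same sum in every library, so they keep no depth. The deposited counts per locus are whole numbers. Only the 3 WT callus columns of that table were used, for depth. The other 9 count columns, those named for *dme-2* callus among them, were not used here.

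The test was limma 3.58.1 in R 4.3.3, using eBayes with trend, on log2(TPM + 1), a scale that understates changes of low loci. It covered loci averaging 1 TPM or more over the libraries of the fit, with Benjamini-Hochberg adjustment over all loci tested. Each stage was fitted on its own 6 libraries and the interaction on all 12. Tables were made with Python 3.11.15 and pandas 2.3.3. p-values measure the spread between the 3 biological replicates of each group. The test was checked on simulated data, 3 libraries against 3. Of loci set at a log2 change of −1 or 1, 14 of 33 and 22 of 49 were called. At −2 or 2 it was 51 of 53 and 57 of 57, and 5 of all 149 calls were false. Simulated loci varied independently with 1 fixed dispersion, so spread shared across loci, as on the first principal component of the callus libraries, was not simulated.

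Each of 27147 loci was named by its Col homologs, using neighbouring loci where there was more than 1 (3683 loci), with symbols from RefSeq TAIR10.1, a build other than that of the files, so no coordinates or sequences were taken from it. Members and gene lists were chosen with earlier results of these data known. Values were given for *DME*, its relatives and the callus genes the study names, all loci with an adjusted p under 0.05, and in each list the members past the fold and unadjusted p cut-off, up to 4, otherwise the 2 with the smallest p. The rule also took in the 10 largest rises and falls past the cut-off with separate groups and a mean of at least 5 TPM. Alternatives were a pseudocount of 0.1, no filter, a filter at 5 TPM, rescaling by the median ratio, eBayes without a trend or robust, all 12 libraries in one fit, a replicate block and leaving out each library. Alternatives for shoots and the interaction were chosen after seeing the data.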

Additional observations from a re-analysis of the deposited data

Results flagged for a closer look

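For 37 of the 68 loci compared, which were named by the rule and lay past the cut-off in callus or belonged to the genes the study names, the difference between *dme-2* and WT was not the same in callus and in shoots, by the interaction of genotype and stage in limma over 12 libraries (adjusted p under 0.05). The values are the shoot log2 difference minus the callus log2 difference, so a negative one means that *dme-2* stood higher relative to WT in callus than in shoots. Over all loci 10.9% passed this test, and callus replicates varied more than shoot replicates, while the fit assumes 1 spread for both. Loci past the cut-off were picked by callus values that also enter the interaction. Their share therefore cannot be set against that of all loci, and the counts are descriptions.

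Below 0 were 22 loci. Among them the defence genes *PRB1* (−5.10), *PR2* (−1.40), AT3G47540 (−1.26), AT2G43580 (−1.51), *CYP71A13* (−2.05), the defensin-like AT4G22212 (−4.21) and the methyl jasmonate esterase *MES10* (−1.85) were found. For dehydration and lipid transfer genes values were −2.66 for *COR15A*, −1.81 for *LEA4-5*, −2.88 for *LTP3* and −2.17 for AT4G12490. DOF and hormone genes were *TMO6* (−1.83), *PEAR1* (−1.66), *DOF2.1* (−1.50), *PEAR2* (−1.06), *ARR16* (−1.88) and *TAR3* (−1.54). The others were *BNS* (−4.39), *UMAMIT22* (−3.92), the glycine-rich protein gene AT2G05510 (−3.32), AT5G59613 (−1.55) and ATLER-5G45800 (−1.22).

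Above 0 were 15 loci. They were *XTH33* (2.90), which encodes a cell wall enzyme, the ERF factor AT5G07580 (2.68), the heat shock genes *HSP17.6C* (2.52) and *HSP22* (2.04), *SCPL34* (2.17), AT5G05320 (2.11), AT5G10130 (1.88), *MLP34* (1.77), AT5G22460 (1.58), AT1G36640 (1.43), *RSL2* (1.40), AT5G22140 (1.16), AT1G33811 (0.99), *SDH3-1* (0.81) and *PRP40A* (0.59). *SDH3-1* was at 0 in *dme-2* at both stages, so its value follows the WT level, and *RSL2* and AT1G36640 were listed at 0 in all shoot libraries.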

How the results depend on the processing

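The 24 adjusted calls became 13 without a filter (7 of them among the 24), 13 with robust eBayes and 435 with all 12 libraries in one fit, which shares the smaller spread of shoots. With a library left out, 1 to 9 loci were called. Replicate numbers did not pair the libraries, since deviations of libraries with the same number had correlations of −0.0568, −0.277 and −0.399. Between libraries with different numbers they ran from −0.25 to 0.473, the highest for *dme-2* replicate 2 with WT replicate 3. What these libraries share was not tested. With the replicate block only 1 locus, *SDH3-1*, was called. The 300 loci past the fold and unadjusted p cut-off became 193 with a filter at 5 TPM, and 288 to 477 with a library left out, the highest without *dme-2* replicate 2. Loci at 0 in *dme-2* calli numbered 12 at a minimum of 0.5 TPM in WT and 2 at 5 TPM, and those at 0 in WT calli 6 and 1. With a library left out they numbered 7 to 13 and 6 to 16. The 14 called loci with the same sign and an adjusted p under 0.05 in shoots, and the 16 with an interaction, stayed within 1.5 times under every alternative run. Among uncalled genes, the log2 fold change of *DML2*, 0.03, came to 0.00 with a pseudocount of 0.1, and the sign reversed for *DML2* without *dme-2* replicate 2 (−0.24, in a range up to 0.23 with a library left out), for *ALN* without *dme-2* replicate 3 (0.05) and for *PDF2* without WT replicate 3 (−0.21) or *dme-2* replicate 3 (−0.25, in a range up to 0.28). Causes of these changes were not tested beyond the smaller number of loci or libraries that a setting leaves. Since the depth of *dme-2* calli is unknown, values of 0 carry no limit.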

Other observations

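Among the 300 loci past the fold and unadjusted p cut-off, 25 pairs lay at most 2 loci apart, 21 of them with the same sign and 4 with opposite signs. No such count was made for neighbouring loci in general. Since 193 of the 300 were higher, many pairs would share a sign in any case, so the count is only a description. The examples were picked after the values were seen. The glycine-rich protein genes AT2G05510, *GRP9* and AT2G05530 had log2 fold changes of 2.29, 1.79 and 2.18 in *dme-2* over WT calli. AT5G08350, AT5G08360 and the alpha-galactosidase gene *AGAL2*, which follow each other on chromosome 5, had 1.83, 2.09 and 1.98. *LBD11*, next to *DOF2.1*, had 1.24 beside 1.21 for *DOF2.1*, and *XTH10*, next to *PRB1*, had 1.09. Neighbours could also differ in sign, as at *MLP28* (1.69) and *MLP34* (−1.09), which are close relatives between which reads could be split.

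Among the largest uncalled rises, the low-sulfur response gene *LSU2* had 19.2, 6.59 and 49.3 TPM in *dme-2* calli and 2.03, 1.94 and 5.96 TPM in WT calli. *MES10* had 32.1, 22.8 and 58.5 TPM in *dme-2* calli and 8.95, 9.15 and 4.49 TPM in WT calli. In both, *dme-2* replicate 3 was highest and *dme-2* replicate 2 lowest. Among the largest uncalled falls, the ERF factor AT5G07580 had 19.3, 32.2 and 6.85 TPM in *dme-2* calli and 67.6, 73.8 and 68.0 TPM in WT calli, and *XTH33* 2.42, 1.34 and 5.02 TPM in *dme-2* calli and 18.0, 11.2 and 7.48 TPM in WT calli. Loci without a Col homolog passed the cut-off at 10 of 82 tested (12.2%), beside 1.76% over all loci.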
